A study of Mus musculus with 14 samples.

Results

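The phagocyte NADPH oxidase is described here through 4 of its subunit genes, Cybb, Cyba, Ncf1 and Ncf4, across sorted fractions of a mouse blood progenitor line. The genes were chosen by name, and every probe whose transcript accession pairs with one of them was taken, which gave 6 of the 41174 probes on the array. Cybb and Ncf1 had 2 probes each, and Cyba and Ncf4 had 1 each. FDCPmix is a multipotent cell line; the labels give bone marrow as its tissue and a maintenance culture with interleukin-3 conditioned medium. All groups therefore come from 1 line under 1 culture condition, and no genotype or treatment separates them. Cells were stained and sorted on Kit, the receptor for stem cell factor, on Gr1, a granulocyte antigen, and on Sca1, the product of Ly6a. The groups were Gr1+ cells (3 arrays), Kit-Gr1- cells (3 arrays), Kit+Gr1-Sca1hi cells (3 arrays), Kit+Gr1-Sca1lo cells (3 arrays) and unfractionated cells (2 arrays), which the series' design text calls biological replicates.

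The oxidase passes electrons from NADPH across a membrane to oxygen and so makes superoxide, from which phagocytes derive the oxidants that kill microbes. Its membrane part, cytochrome b558, is a heterodimer of gp91phox (Cybb), which carries the electron path, and p22phox (Cyba), which stabilises it and offers a docking site. In resting cells p47phox (Ncf1) and p40phox (Ncf4) lie in the cytosol with other subunits; on stimulation p47phox is phosphorylated, the cytosolic subunits move to the membrane, and the GTPase Rac joins them. The complex is a late product of granulocyte and monocyte maturation, and loss of any of its subunits causes chronic granulomatous disease in humans.

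Probe sequences were not used here; the regions upstream of the genes are shown because the subunits are compared together. These are the 250 bases before the annotated start on assembly GRCm38.p6 (RefSeq), on the gene's own strand; 3 of the 4 genes matched, and Ncf4 is named only. The Cybb region is chrX:9469325-9469574, the Cyba region chr8:122432941-122433190 and the Ncf1 region chr5:134229626-134229875, all on the minus strand. Capitals mark matches on either strand to motifs of general and blood cell transcription factors.
Cybb: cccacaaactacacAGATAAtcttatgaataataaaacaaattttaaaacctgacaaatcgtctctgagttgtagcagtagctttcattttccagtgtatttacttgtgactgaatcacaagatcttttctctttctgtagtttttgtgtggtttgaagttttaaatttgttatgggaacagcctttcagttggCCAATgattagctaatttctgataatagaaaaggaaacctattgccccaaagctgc
Cyba: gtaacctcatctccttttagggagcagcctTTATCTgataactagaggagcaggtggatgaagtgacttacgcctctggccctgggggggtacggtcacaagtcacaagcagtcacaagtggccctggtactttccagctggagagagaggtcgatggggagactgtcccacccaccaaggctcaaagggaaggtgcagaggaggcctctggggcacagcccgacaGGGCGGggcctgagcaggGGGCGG
Ncf1: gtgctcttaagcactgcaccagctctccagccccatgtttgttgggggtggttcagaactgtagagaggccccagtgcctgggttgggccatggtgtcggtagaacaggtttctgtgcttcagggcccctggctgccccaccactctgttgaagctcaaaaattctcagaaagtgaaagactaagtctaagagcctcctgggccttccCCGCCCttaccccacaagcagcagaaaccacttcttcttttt
Both strands were searched for 5 motifs, and no matches overlapped. The PU.1 core was searched as GAGGAA, the Sp1 box as GGGCGG, and the GATA site as AGATAA. The CCAAT box was searched by those letters, and the C/EBP site as TTNNGNAA. Cybb held CCAAT 56 bases before the start and AGATAA 236 bases before it. Cyba held GGGCGG at 24 and 6 bases before the start and AGATAA on the reverse strand at 220 bases. Ncf1 held GGGCGG on the reverse strand at 42 bases. Of 32851 mouse promoter windows of the same length, 23.3% held GAGGAA, 32.7% GGGCGG, 33.8% CCAAT, 10% AGATAA and 36.8% TTNNGNAA. GAGGAA and TTNNGNAA were not among the letters of these 3 windows.

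Signals are log2 values relative to the 75th percentile of the same array, so 0 is that percentile and 1 unit is a 2-fold step. Levels of different probes are not set against each other. Between 79.5% and 99.5% of probes were well above background, depending on the array. On 4 arrays the signals were compressed, with an interquartile range of 1.78 to 3.42 log2 units, against 4.17 to 4.92 on the other 10 arrays. These were replicate 3 of Gr1+, of Sca1hi and of Sca1lo, and replicate 1 of the unfractionated cells, whose median signal was 5180 against 122 to 801 elsewhere. Differences of the oxidase genes and counts over lists are also given without them; summed signals are given over all arrays. The arrays lay on 4 slides, and slides 1 to 3 each held Gr1+, Kit-Gr1- and at least 1 Kit+Gr1- array.

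Of 10 neutrophil markers 8 rose in Gr1+ against Kit+Gr1- cells, as did 6 of 8 eosinophil markers and 4 of 9 monocyte and macrophage markers, with 1.38% of all 32463 genes rising. With the 4 compressed arrays left out these counts were 9 of 10, 6 of 8 and 4 of 7, with 3.76% of genes rising. The summed linear signal of the neutrophil list, in units of the array's 75th percentile, ran from 92.6 to 310 on Gr1+ arrays, 7.63 to 18.6 on Kit-Gr1- arrays, 17.7 to 29.4 on Sca1hi arrays and 15.8 to 19.5 on Sca1lo arrays. The eosinophil sum was 111 to 288 on Gr1+ arrays and at most 4.19 on any other sorted array. The monocyte and macrophage sum was 31.9 to 52.9 on Gr1+ arrays and 2.43 to 5.81 on the other sorted arrays. Of 8 mast cell and basophil markers 1 rose in Gr1+ against Kit+Gr1- cells over 14 arrays. With the replicate number as a block 3 rose, beside 1.71% of genes. Over the 12 sorted arrays 5 rose, beside 3.04% of genes, and 5 rose with the compressed arrays left out. Their sum was 252 to 534 on Gr1+ arrays and 152 to 350 on Kit-Gr1- arrays. It was 80.4 to 214 on Sca1hi arrays and 86.7 to 160 on Sca1lo arrays. In Kit-Gr1- cells, where 0.0554% of all genes rose against Kit+Gr1- cells, 4 of 8 erythroid markers did, among them Hba-a1, an alpha globin (3.90 ± 0.44, limma adjusted p = 0.00370). On the 10 uncompressed arrays 5 of the 8 rose, with 0.349% of genes. Of 6 megakaryocyte markers 1 rose in Kit-Gr1- against Kit+Gr1- cells over 14 arrays, with a list median of 1.46, and 3 rose over the 12 sorted arrays, where 0.282% of genes did. None of the mast cell and basophil markers passed in that comparison, with a median of 0.98. In such bulk samples more cells of a type and more RNA per cell cannot be told apart.

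Gr1+ cells had the highest mean of the sorted fractions at all 6 oxidase probes, and at 5 of them all 3 Gr1+ arrays lay above all 9 other sorted arrays. By each gene's probe of highest mean signal this held at Cyba, Ncf1 and Ncf4 and not at Cybb, and 4.28% of all genes showed it. At the second Cybb probe most of the other sorted arrays were not well above background. The sizes differed by subunit and probe, with 2.09-fold over Kit+Gr1- cells at 1 Cybb probe. At the other Cybb probe the difference from Sca1lo cells, whose arrays were at background, was 80.2-fold against a floor. In the fit of all 14 arrays where 2.01% of genes passed in either direction, no member passed the test through its main probe, the probe of highest mean signal (adjusted p under 0.05 and at least 2-fold); the second probes of Cybb and Ncf1 did pass. In the fit of the 12 sorted arrays Cyba, Ncf1 and Ncf4 passed through their main probes, with 3.04% of genes rising, and the second Ncf1 probe passed among probes, of which 3.02% rose. The second Cybb probe met the filter of that fit only through the Gr1+ arrays, so its pass there is not counted. With the replicate number as a block over 14 arrays, where 1.71% of genes rose, Cyba and Ncf1 passed and Cybb and Ncf4 did not. The fits of 14 and of 12 arrays give the same differences and differ in the spread: the unfractionated pair, of which 1 array is compressed, had an SD of 2.39 at Cyba, 2.35 at Ncf1 and 3.16 at Ncf4, and this enters the pooled error of the first fit.

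**Figure D1:**
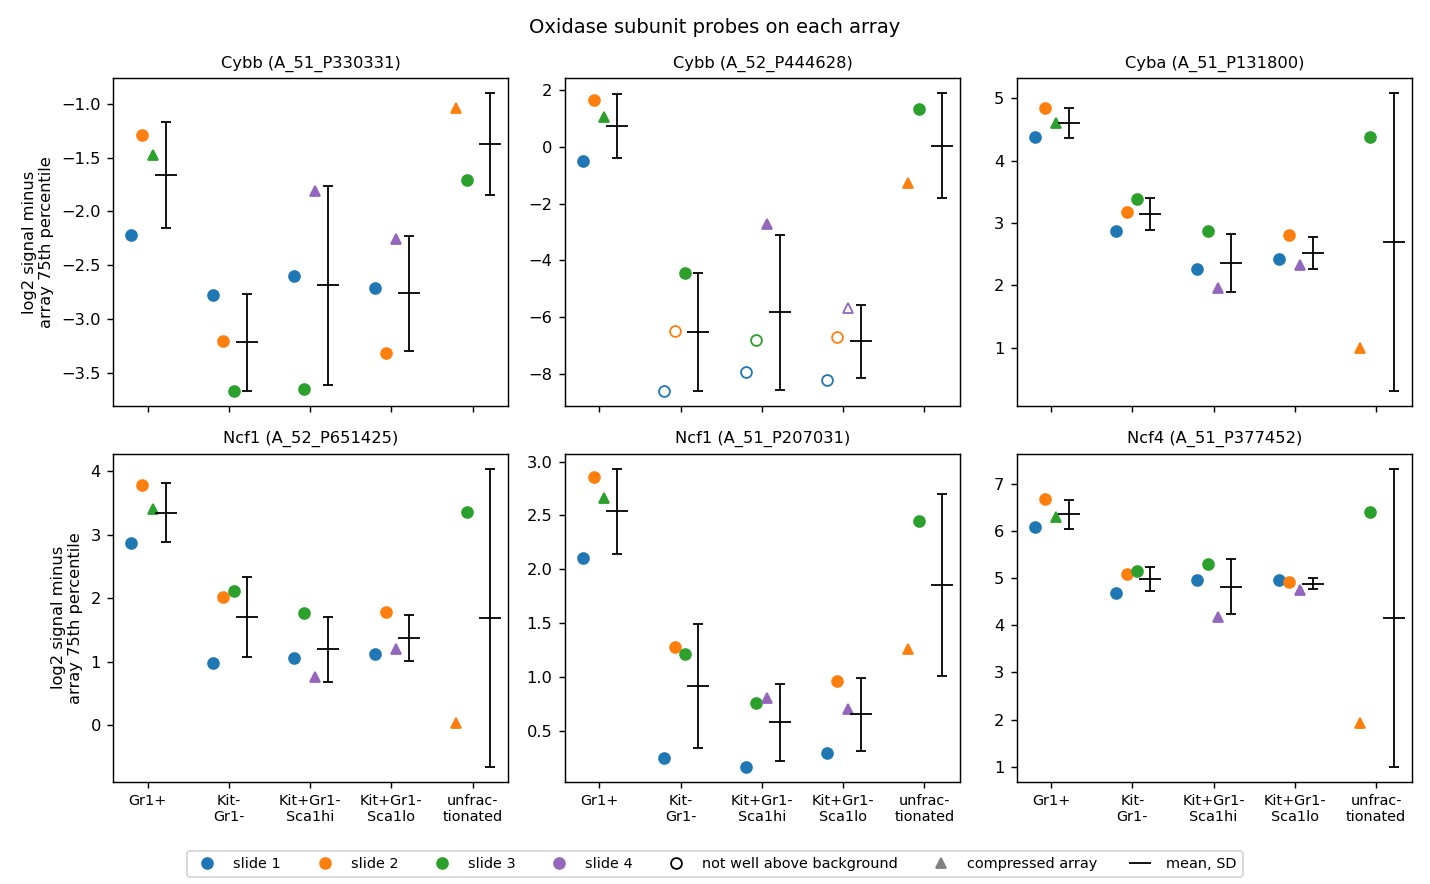
Each panel shows 1 probe; the y axis is the log2 signal minus the array's 75th percentile, points are arrays coloured by slide, triangles are the 4 compressed arrays, open points were not well above background, and bars are the mean and SD of the group (n = 3, or 2 for unfractionated cells). The 3 Gr1+ arrays lie above all other sorted arrays at every probe but A_51_P330331 of Cybb, and the unfractionated arrays lie far apart at Cyba, Ncf4 and the first Ncf1 probe.

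Cyba, the p22phox gene (NM_007806), had log2 signals of 4.37, 4.85 and 4.61 in Gr1+ cells, 2.88, 3.18 and 3.38 in Kit-Gr1- cells, 2.26, 2.87 and 1.95 in Kit+Gr1-Sca1hi cells and 2.42, 2.81 and 2.33 in Kit+Gr1-Sca1lo cells. The lowest Gr1+ array stood about 1 unit above the highest of the other sorted arrays, and the Kit-Gr1- arrays lay narrowly above all Kit+Gr1- arrays, as they did at 3.31% of genes. The group means ran 4.61 ± 0.24, 3.14 ± 0.25, 2.36 ± 0.47 and 2.52 ± 0.25 in that order of fractions (SD, n = 3 each). Against the mean of both Kit+Gr1- groups, Gr1+ cells were higher by 2.17 ± 0.54 (SE), a 4.50-fold difference with an adjusted p of 0.0618 from limma over 14 arrays. With the replicate block the limma adjusted p was 0.0295, and 1.71% of genes rose. Over the 12 sorted arrays the error was 0.21 and the limma adjusted p 4.25e-05. Without the 4 compressed arrays the difference was 2.02 with an adjusted p of 0.000787. Within slides 1, 2 and 3 it was 2.04, 2.04 and 1.74.

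Cybb, the gp91phox gene (NM_007807), gave different answers at its 2 probes. At A_51_P330331, the brighter on average, log2 signals were -2.22, -1.29 and -1.47 in Gr1+ cells, -2.77, -3.21 and -3.67 in Kit-Gr1- cells, -2.60, -3.65 and -1.81 in Sca1hi cells and -2.71, -3.32 and -2.26 in Sca1lo cells. The Gr1+ arrays overlapped 1 array, the compressed Sca1hi replicate 3. The difference from Kit+Gr1- cells was 1.06 ± 0.43 (SE), with an adjusted p of 0.421 over 14 arrays and 0.173 over the 12 sorted arrays, both from limma. Within slides 1, 2 and 3 it was 0.43, 2.02 and 2.18. Without the 4 compressed arrays it was 1.31, with an adjusted p of 0.0608.

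At A_52_P444628 the log2 signals were -0.51, 1.65 and 1.07 in Gr1+ cells, -8.62, -6.51 and -4.44 in Kit-Gr1- cells, -7.95, -6.83 and -2.73 in Sca1hi cells and -8.23, -6.70 and -5.67 in Sca1lo cells. All Gr1+ arrays were well above background, against 1 of 3 Kit-Gr1- arrays, 1 of 3 Sca1hi arrays, which was the compressed one, and none of the 3 Sca1lo arrays. Each Sca1lo value was then raised to at least the lowest signal of any well-above-background probe on that array. Against this floor Gr1+ cells averaged 80.2-fold higher than Sca1lo cells, which is no strict lower limit. The measured means were 0.74 and -6.87, with a limma adjusted p of 0.0185 in a comparison where 0.901% of probes rose. That p rests on Sca1lo values at background. Tested probe by probe over 14 arrays, where 1.37% of 40278 probes rose, this probe rose in Gr1+ against Kit+Gr1- cells by 7.09 ± 1.19 (SE), with a limma adjusted p of 0.00754. Since 5 of the 6 Kit+Gr1- arrays were not well above background there, that figure is no exact fold. The rise did not pass when Gr1+ replicate 2 was left out, where it was 6.64 with an adjusted p of 0.0898. Within slides 1, 2 and 3 it was 7.59, 8.35 and 7.90. Both Cybb probes were higher in Gr1+ cells, and over the 12 sorted arrays their signals correlated at r = 0.72, across arrays that share slides and scale.

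Ncf1, which encodes the organiser p47phox (NM_010876), had log2 signals at its main probe A_52_P651425 of 2.87, 3.78 and 3.41 in Gr1+ cells, 0.98, 2.02 and 2.11 in Kit-Gr1- cells, 1.06, 1.76 and 0.76 in Sca1hi cells and 1.12, 1.79 and 1.21 in Sca1lo cells. The Gr1+ arrays stood clear of the rest, and the Kit-Gr1- arrays overlapped both Kit+Gr1- groups. Gr1+ cells were higher than Kit+Gr1- cells by 2.07 ± 0.56 (SE), 4.19-fold, with a limma adjusted p of 0.0991 over 14 arrays, 0.0190 with the replicate block and 0.000815 over the 12 sorted arrays. On the 10 uncompressed arrays it was 1.89 higher (limma adjusted p = 0.0103). The second probe, A_51_P207031, read 2.10, 2.86 and 2.66 in Gr1+ cells, 0.25, 1.28 and 1.21 in Kit-Gr1- cells, 0.17, 0.76 and 0.81 in Sca1hi cells and 0.29, 0.96 and 0.70 in Sca1lo cells. It rose by 1.93 ± 0.33 (SE), 3.80-fold, with an adjusted p of 0.00804 in the limma fit of all probes over 14 arrays, and by 1.94 without the 4 compressed arrays (adjusted p = 0.00624), where 3.87% of probes rose. The probes agreed in size: within slides 1, 2 and 3 the difference was 1.77, 1.99 and 1.64 at the first and 1.87, 1.90 and 1.90 at the second.

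Ncf4, which encodes p40phox, a subunit that binds a phosphoinositide of phagosome membranes (NM_008677), had log2 signals of 6.08, 6.67 and 6.30 in Gr1+ cells, 4.68, 5.10 and 5.15 in Kit-Gr1- cells, 4.97, 5.31 and 4.18 in Sca1hi cells and 4.97, 4.92 and 4.74 in Sca1lo cells. The Gr1+ arrays lay above the rest, whose 3 groups overlapped. The difference from Kit+Gr1- cells was 1.50 ± 0.73 (SE), 2.83-fold, with a limma adjusted p of 0.666 over 14 arrays. Over the 12 sorted arrays its error was 0.24 and its adjusted p 0.00173, and without the 4 compressed arrays the difference was 1.33 (limma adjusted p = 0.00269). Within slides 1, 2 and 3 it was 1.11, 1.75 and 0.99.

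Against Kit-Gr1- cells, Gr1+ cells were higher by 1.47 ± 0.62 at Cyba, 1.65 ± 0.65 at Ncf1, 1.37 ± 0.85 at Ncf4 and 1.55 ± 0.49 at the first Cybb probe (SE). None of these passed over 14 arrays, where 1.03% of genes rose; the limma adjusted p values were 0.578, 0.470, 0.946 and 0.226 in that order. Over the 12 sorted arrays, where 2.44% of genes rose, they were 0.00274 at Cyba, 0.0133 at Ncf1, 0.0111 at Ncf4 and 0.0807 at Cybb. Without the 4 compressed arrays, where 3.44% of genes rose, the differences were 1.47, 1.62, 1.40 and 1.46, with adjusted p values of 0.00490, 0.0302, 0.00355 and 0.0558 in the same order. Among probes over 14 arrays, where 1.02% rose, the second Cybb probe rose by 7.26 ± 1.37 (SE, limma adjusted p = 0.0175), which is no exact fold, since 2 of the 3 Kit-Gr1- arrays were not well above background. The second Ncf1 probe was 1.62 higher, with an adjusted p of 0.0535.

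No oxidase gene passed between Kit-Gr1- and Kit+Gr1- cells. The differences were 0.71 (95% interval -0.46 to 1.87) at Cyba, 0.42 (-0.79 to 1.63) at Ncf1, 0.13 (-1.45 to 1.71) at Ncf4 and -0.49 (-1.42 to 0.43) at the first Cybb probe. The limma adjusted p was 0.906 or more at each, and 0.0678% of genes passed in either direction. At Cyba the 95% interval was 0.25 to 1.16 over the 12 sorted arrays and 0.10 to 1.01 without the 4 compressed arrays, both above 0, with adjusted p values of 0.295 and 0.464 from limma. The Kit-Gr1- mean was the second highest of the sorted fractions at Cyba, Ncf1 and Ncf4 and the lowest at that Cybb probe, and its arrays overlapped the next Kit+Gr1- group in the order at Ncf1, Ncf4 and that Cybb probe. At Cyba they lay narrowly above all Kit+Gr1- arrays. Between Sca1hi and Sca1lo cells the differences were -0.16 (-1.50 to 1.19) at Cyba, -0.18 (-1.58 to 1.23) at Ncf1, -0.06 (-1.88 to 1.77) at Ncf4 and 0.08 (-0.99 to 1.14) at Cybb, and without the 4 compressed arrays they lay between -0.11 and 0.19. No gene (0%) was called in that comparison by limma, and 55 of 32463 had an unadjusted p under 0.05.

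**Figure D2:**
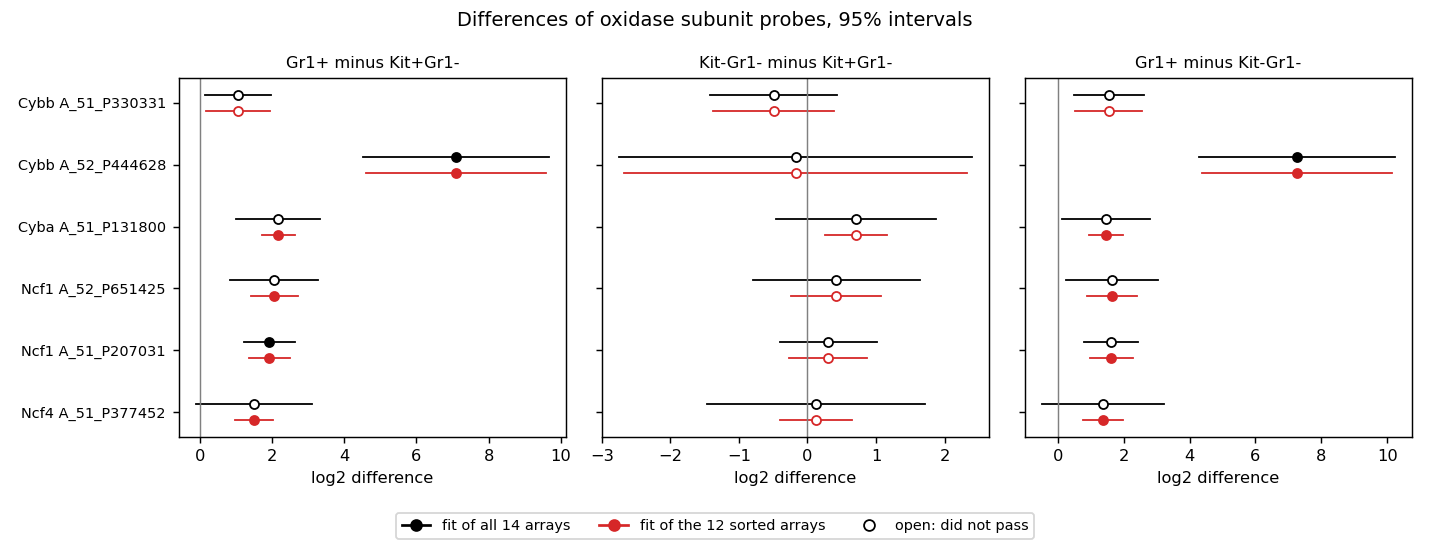
Points are log2 differences of each oxidase probe in 3 comparisons, named as first minus second group, with 95% intervals from limma; black is the fit of all 14 arrays, red the fit of the 12 sorted arrays, and open points did not pass; the second Cybb probe entered the red fit only through its Gr1+ arrays, and its values against both other groups rest on arrays at background. The estimates coincide and the red intervals are narrower at Cyba, Ncf1 and Ncf4, while both Cybb probes have like intervals in both fits; the x axes differ between panels.

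The unfractionated arrays lay far apart at most oxidase probes. Replicate 2 read 4.38 at Cyba, 3.35 at the main Ncf1 probe, 6.39 at Ncf4 and 1.35 at the second Cybb probe, within the range of Gr1+ cells. Replicate 1, the most compressed array, read 1.00, 0.04, 1.93 and -1.25 there. The difference of unfractionated from Kit+Gr1- cells was 0.25 ± 0.62 at Cyba, 0.41 ± 0.65 at Ncf1, -0.69 ± 0.85 at Ncf4 and 1.35 ± 0.49 at the first Cybb probe (SE), and none passed. With the compressed replicate 1 and the other compressed arrays left out, replicate 2 alone stood for the unfractionated cells. The difference from Kit+Gr1- cells was then 1.79 at Cyba and 1.35 at Ncf4. A lone array is assumed to vary like the other groups, so only these sizes are given. In the fit of all arrays no gene was called between unfractionated and Kit+Gr1- cells by limma, and 5805 had an unadjusted p under 0.05.

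Among assembly partners of the complex, Rac2, the haematopoietic Rac, differed between Gr1+ and Kit+Gr1- cells by 0.63 ± 0.65, Rac1 by -0.13 ± 0.55, Rap1a, a GTPase found with cytochrome b558, by 0.20 ± 0.49, and Cybc1, a chaperone of that cytochrome, by 0.67 ± 0.43 (SE), and none of these passed.

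Of the 14 measured partners none passed in Gr1+ against Kit+Gr1- cells over 14 arrays, with a median difference of 0.66 against -0.04 for all genes. S100a8 and S100a9, calcium-binding proteins that aid oxidase assembly, differed by 9.89 ± 2.63 and 7.28 ± 1.98 (SE, limma adjusted p = 0.0884 and 0.0991). With the replicate block, where 1.71% of genes rose, S100a8, S100a9 and Hvcn1 passed. Their limma adjusted p values were 0.000430, 0.00181 and 0.0353 in that order. Over the 12 sorted arrays 4 of 14 passed upward, with 3.04% of genes doing so: S100a8, S100a9, Arhgdib, which holds Rac in the cytosol, and Hvcn1, the proton channel that balances the oxidase's charge transfer (2.53 ± 0.22, adjusted p = 1.82e-05). In the fit that left out the compressed arrays, where 3.76% of genes rose, Hvcn1 was the 1 partner that passed. Against Kit-Gr1- cells 1 of the 14 partners rose over 14 arrays, beside 1.03% of all genes. It was Vav3, an exchange factor for Rac, with a difference of 1.15 ± 0.25 (SE, limma adjusted p = 0.0446). None of the 6 measured genes of other NADPH oxidases passed; Duoxa2 differed by -0.33, and Nox1 was well above background on at most 1 array of each sorted group, so no difference is given for it.

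Of 23 measured receptors and kinases upstream of the oxidase 6 rose in Gr1+ against Kit+Gr1- cells, with a median of 1.14; of all genes 1.38% rose, with a median of -0.04. Fcgr3, an IgG receptor, rose by 4.48 ± 0.88, Prkcb, a kinase that phosphorylates p47phox, by 3.62 ± 0.64, and Fpr1, the formyl peptide receptor, by 3.13 ± 0.64 (SE). The limma adjusted p values were 0.0171, 0.00988 and 0.0208 in that order. Over the 12 sorted arrays 12 of 23 rose, beside 3.04% of all genes, and without the 4 compressed arrays 11 did, beside 3.76%, among them Fcgr3 (4.38), Prkcb (3.63) and Fpr1 (3.09). The neutrophil, eosinophil and monocyte marker sums described above were also higher on Gr1+ arrays than on all other sorted arrays. The mast cell and basophil sums overlapped between Gr1+ and Kit-Gr1- arrays. The part of these cell types in the differences of the receptors and the oxidase genes was not tested.

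Enzymes that use or remove the oxidants showed 1 gene up and 1 down of 23 measured, and 1.38% of all genes rose. Epx, the eosinophil peroxidase, rose by 7.36 ± 1.25 (SE, adjusted p = 0.00802) and, with 0.625% of genes falling, Prdx4, a peroxiredoxin of the endoplasmic reticulum, fell by 1.72 on the log2 scale (SE 0.22, adjusted p = 0.00174, both limma). On the 10 uncompressed arrays Epx was 7.57 higher and Prdx4 fell by 1.75, and both passed, with 3.76% of genes rising and 3.12% falling. With the replicate block 2 rose, Epx and Gsr, the glutathione reductase, beside 1.71% of all genes. Over the 12 sorted arrays, where 3.04% of genes rose, 5 did, among them Mpo, the myeloperoxidase (3.20 ± 0.60), and Prdx5 (2.05 ± 0.27). None of 9 genes for NADPH supply passed over 14 arrays. G6pdx, the entry enzyme of the pentose phosphate pathway, differed by 1.44 ± 0.61 and Idh1 by 1.06 ± 0.30 (SE). Both passed over the 12 sorted arrays, beside the same 3.04% of genes. Idh1 also passed with the replicate block (limma adjusted p = 0.0238), beside 1.71% of genes, and did not without the 4 compressed arrays (0.0858).

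Of 12 measured transcription factors known at oxidase genes, 2 rose in Gr1+ against Kit+Gr1- cells: Cebpd by 5.05 ± 0.74 and Spi1, which encodes PU.1, by 1.36 ± 0.25 (SE, limma adjusted p = 0.00357 and 0.0108), beside 1.38% of all genes. Both also rose against Kit-Gr1- cells, by 5.12 ± 0.86 and 1.70 ± 0.28, beside 1.03% of all genes. On the 10 uncompressed arrays both passed in both comparisons, by 5.11 and 1.35 against Kit+Gr1- cells. Spi1 differed by -0.33 ± 0.25 between Kit-Gr1- and Kit+Gr1- cells.

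**Figure D3:**
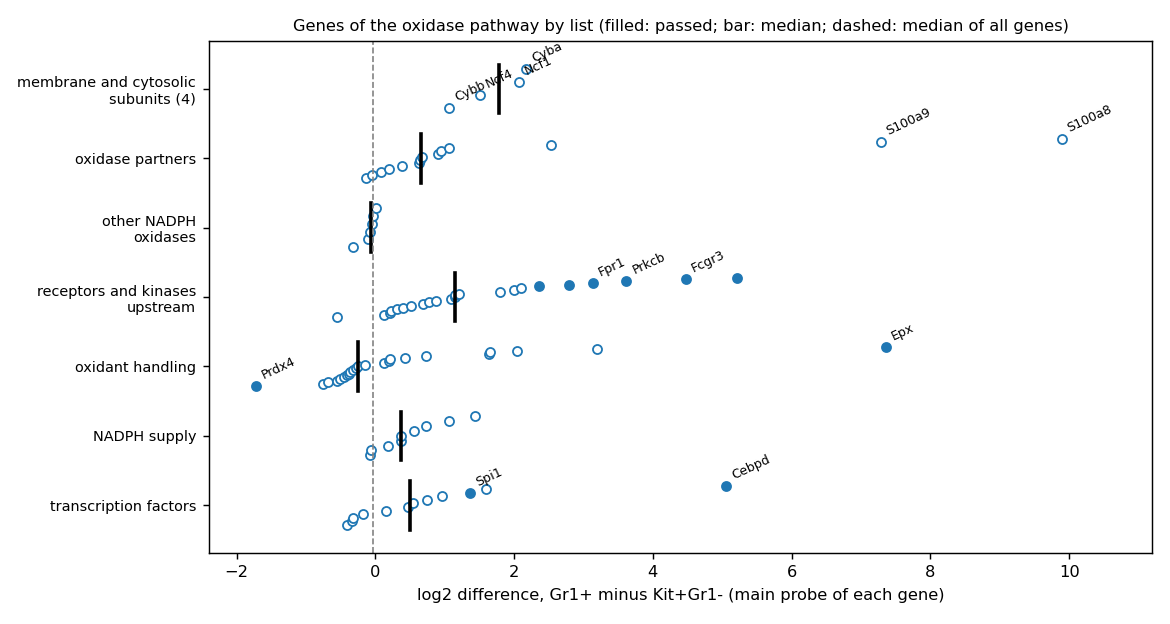
Each point is a gene's log2 difference between Gr1+ and Kit+Gr1- cells over 14 arrays at its main probe, in rows by list; filled points passed, some points carry the gene name, bars are list medians and the dashed line is the median of all genes (-0.04). Receptors and kinases hold 6 filled points, oxidant handling and transcription factors 2 each, and the 4 oxidase subunits lie between 1.06 and 2.17 without passing in that fit.

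The genes whose signals most resembled each subunit over the 12 sorted arrays, by Pearson's r among 16153 genes with a symbol, differed between subunits. They are a description of arrays that share slides, scale and fractions. For Cyba they were Itgb2 (r = 0.988), the integrin chain of leukocytes, Cotl1, Ceacam1, Ifngr1 and Cstb. For Ncf4 they were Snx20 (r = 0.993), Hsd17b11, Kctd20, Tmx4 and Arhgap9. Among the 5 closest to the main Ncf1 probe were B4galt3 (r = 0.990), Mapkapk3, Cklf and Cnn2. For the first Cybb probe they were Lzts3 (r = 0.984), Lrp1, Abca13, Rpl3l and P2ry13. Among the subunits themselves, Cyba, Ncf4 and the main Ncf1 probe correlated at 0.95 to 0.97, the first Cybb probe with these at 0.41 to 0.44, and the second Cybb probe at 0.75 to 0.82.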

How the data were processed

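RNA of 14 FDCPmix samples was measured on Agilent single-colour mouse arrays. Signals were extracted by Agilent software, Feature Extraction 10.1.1.1, per the file headers; the deposited files give each spot's processed intensity, background-subtracted by the authors, with its median intensity and local background. The deposited series matrix holds log2 values equal to the log2 of the processed intensity, unscaled. Array headers name build mm8, so no array coordinates are given.

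Control and outlier-marked spots were left out, spots of a probe averaged, and log2 intensities scaled by each array's 75th percentile. A probe was kept when well above background on at least 3 of 14 arrays (40278 probes), and the kept probe of highest mean stood for its gene (32463 genes). All 14 arrays entered 1 fit of 5 groups (limma 3.58.1 under R 4.3.3), moderated with a trend on mean signal, with 9 residual degrees of freedom. Tests were two-sided, adjusted by Benjamini-Hochberg over all genes, and called at an adjusted p under 0.05 and at least 2-fold; Kit+Gr1- is the mean of its 2 groups. Fits of each probe and of lists in the sorted arrays or without compressed arrays were added after seeing the data, as was keeping outlier spots. The normexp alternative, planned on the mean signal, was run on the median signal. Replicate numbers come from the titles. Same-numbered arrays of Gr1+, Sca1hi and Sca1lo correlated at 0.62 to 0.87 in their deviations from the group means (9 pairs). Differently numbered sorted arrays, those of Kit-Gr1- among them, correlated at up to 0.66, with a median of -0.11. Of 12 sorted arrays 10 correlated best with an array of their own number. Replicate 3 of each of these 3 groups is a compressed array, so its correlations cannot tell pairing from shared compression. Among replicates 1 and 2 of these groups, same-numbered arrays correlated at 0.62 to 0.79 and differently numbered ones at 0.31 to 0.66. All deviations are from means that include the compressed array. Blocked values are given where they change a call, and rest on a pairing that is assumed. Pairs with Kit-Gr1- correlated at -0.23 to 0.21, yet the block was fitted to all 14 arrays. The number of arrays limits the precision. The fit was also run on simulated data with independent noise of equal spread in all groups. These had no compressed arrays and no pairing, so they do not bear on how such arrays affect the calls.

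Members and lists were chosen with earlier results of these data known. Named were the 4 members with every probe, Rac1, Rac2, Cybc1, Rap1a and Spi1, up to 4 called genes of largest change per list (or up to 2 as values where none was called; not all are printed), and the 5 genes most like each member. Some genes that this rule takes are not reported here. Symbols and promoter sequences come from RefSeq tables of GRCm38.p6, which named 23374 probes. Figures were drawn with Python 3.11.15 and matplotlib 3.10.9.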

Additional observations from a re-analysis of the deposited data

How the results depend on the processing

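The sign of the Gr1+ differences from Kit+Gr1- and Kit-Gr1- cells did not turn at any member under the alternatives that were run. These were 244 combinations of member, comparison and alternative, of which 51 passed. The alternatives are refits of the same arrays, so 51 is no count of independent results. Over the alternatives all genes called ranged from 115 to 2012 against Kit+Gr1- cells and from 151 to 2244 against Kit-Gr1- cells. In the sorted fractions only, 3.04% and 2.44% of genes rose in that order, and without the 4 compressed arrays 3.76% and 3.44%. No such share is given for the other settings of this paragraph, so passes of members there cannot be set against all genes. The 51 include the second Cybb probe, whose values rest on arrays at background. Against Kit+Gr1- cells Cyba, Ncf1 and Ncf4 passed in the sorted fractions only (2.17, 2.07 and 1.50), without the 4 compressed arrays (2.02, 1.89 and 1.33), with array weights (2.19, 2.19 and 1.59, Cybb 1.49) and on the unscaled series matrix (1.97, 1.87 and 1.30). Against Kit-Gr1- cells the same settings gave 1.47, 1.65 and 1.37; 1.47, 1.62 and 1.40; 1.58, 1.65 and 1.47 (Cybb 1.73); and 1.50, 1.68 and 1.41. Quantile normalization let Cyba (1.99 and 1.51) and Ncf4 (1.29 and 1.40) pass, and slide as a random block let Cyba pass (2.11) against Kit+Gr1- cells; slide as a fixed block let no main probe pass. The mean over a gene's probes gave 4.08 and 4.41 at Cybb and 2.00 at Ncf1, and the other probe 7.09 and 7.26 at Cybb and 1.93 at Ncf1. Leaving out either unfractionated array let Cyba, Ncf1 and Ncf4 pass in both comparisons. Over all single-array omissions the difference from Kit+Gr1- cells ran from 2.05 to 2.30 at Cyba, 1.85 to 2.31 at Ncf1, 1.34 to 1.64 at Ncf4 and 0.82 to 1.34 at Cybb, and from Kit-Gr1- cells from 1.33 to 1.58, 1.29 to 1.89, 1.21 to 1.51 and 1.33 to 1.83. The array weights did not fully converge. Beyond the spread of the unfractionated pair, the cause of these changes was not tested.

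With the replicate block Cyba (2.17) and Ncf1 (2.07) passed against Kit+Gr1- cells; 793 genes were called there in place of 651. It also let the second Ncf1 probe pass against Kit-Gr1- cells (1.62), where the numbers do not pair the arrays, and changed no other call of a member in the comparisons of sorted fractions. Between unfractionated and Kit+Gr1- cells the block called 119 genes and both second probes.

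In the other comparisons 33 of 366 combinations turned sign. Among those were unfractionated minus Kit+Gr1- differences at Ncf4 without the 4 compressed arrays (1.35), and at Cyba (-1.44) and Ncf1 (-1.25) without unfractionated replicate 2. Without unfractionated replicate 1 the difference at Cyba was 1.94. Each of these leaves 1 unfractionated array, which is assumed to vary like the other groups. Genes called between Gr1+ and Kit+Gr1- cells numbered 651, with 202 under the array median, 1354 in the sorted fractions only, 2012 without the compressed arrays, 1844 with array weights, and 115 to 1359 over single-array omissions (115 without Gr1+ replicate 2). Between Gr1+ and Kit-Gr1- cells they numbered 517, with 191, 1280, 1819 and 2244 in the same order of settings, 338 without a trend and 151 to 1292 over omissions. Between Kit-Gr1- and Kit+Gr1- cells 22 were called, with 0 to 142 over all settings; between unfractionated and Kit+Gr1- cells 0 were, with up to 537, and 19185 without unfractionated replicate 2. Signal over background limits the second Cybb probe, which was not well above background on 5 of 6 Kit+Gr1- and 2 of 3 Kit-Gr1- arrays, so that 7.09, 7.26, 4.08 and 4.41 are no exact folds.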

Other observations

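The second probes of Cybb and Ncf1 had other nearest genes than the first. A_52_P444628 of Cybb was closest over the 12 sorted arrays to AI413582 (r = 0.988), Fam114a1, Tlr4, the receptor for lipopolysaccharide, Slc27a4 and Trim45, of which Tlr4, Slc27a4 and Trim45 rose in Gr1+ against Kit+Gr1- cells. A_51_P207031 of Ncf1 was closest to Sqor (r = 0.991), Stfa2l1, Cd300lf, Slc31a2 and Cmtm2a, and all 5 rose, Stfa2l1 by 8.01 on the log2 scale. These genes were picked for likeness to probes that were high on Gr1+ arrays, so their rises follow in part from that choice. Of all genes 1.38% rose in that comparison. These probes were not chosen by mean signal, and the values are given as a description of arrays that share slides and scale.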
